A study of Arabidopsis thaliana with 42 samples.

Results

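The 10 genes described here are 9 heat shock proteins of *Arabidopsis thaliana* and the heat stress transcription factor HSFA2, taken by their locus identifiers from the 27050 genes of the deposited table. They are *HSFA2* (AT2G26150), *HSP101* (AT1G74310), *HSP70* (AT3G12580), *HSP90.1* (AT5G52640) and the small heat shock protein genes *HSP18.2* (AT5G59720), *HSP17.4* (AT3G46230), *HSP17.6-II* (AT5G12020), *HSP21* (AT4G27670), *HSP23.6* (AT4G25200) and *HSP22* (AT4G10250). Leaves of WT Col-0 and of *rpn12a-236*, an EMS line with a premature stop codon in the 26S proteasome subunit gene *RPN12a*, were profiled by RNA-seq in 42 libraries. Both genotypes supplied light leaves at 0 d and individually darkened leaves (IDLs, single leaves covered on an otherwise lit plant) after 6 h, 1 d, 3 d and 6 d, and uncovered WT leaves were collected at those 4 later times as well. Each of the 14 conditions had 3 biological replicates, each a pool of 2 leaves from independent plants grown in short days. Harvest was at 2 pm for the 6 h leaves and at 8 am for all others. The mutant was 1 EMS line with further homozygous coding changes on chromosome 1, and its light leaves were sampled only at 0 d.

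Heat shock proteins are molecular chaperones. Small heat shock proteins bind unfolding proteins and keep them from aggregating, HSP70 and HSP90 proteins fold and mature their clients, and HSP101 pulls proteins out of aggregates. HSFA2 is a heat-inducible transcription factor that binds heat shock elements in the promoters of such genes and prolongs their transcription. The proteasome removes damaged proteins that chaperones do not refold, and in many eukaryotes a failing proteasome is known to call up chaperone genes.

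The deposited values are z-scores: each gene has mean 0 and SD 1 over the 42 libraries, so neither a level in reads nor a fold change can be read from them, and the level of one gene cannot be compared with that of another. A difference below is counted in z-score units, each being 1 SD of that gene. A lowest z-score held by 2 or more libraries was treated as the gene's floor, the value of a library in which the gene was not detected. Depth per library is unknown from these values, and 5215 to 6408 genes per library sat at such a floor. Groups were compared by the moderated test of limma, with Benjamini-Hochberg adjustment over all genes tested, and a gene was called at an adjusted p of at most 0.01. The mRNA of *RPN12a* itself was higher in the mutant at every time (z-score 1.28 against -0.833 at 0 d). This mRNA does not check the labels, since the line carries a stop codon and not a deletion, and the mutant columns of the table, headed by a name that the labels do not use, were matched to *rpn12a-236* as the only other line. All 3 leaf markers had values above a floor in 42 of 42 libraries, whereas the root markers COBL9 and PYK10 were above it in 5 and 11. The seed markers CRA1 and CRC were above their floor in 7 and 4 libraries, and of the flower markers AP3 was in 9, PI in 16 and AG in 42.

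The 10 genes fell into 2 kinds by how often they were detected. *HSP101*, *HSP70*, *HSP90.1* and *HSFA2* had no floor in the 42 libraries and little scatter between replicates. Their within-group SDs were 0.220, 0.128, 0.173 and 0.160, against a median of 0.409 over all genes without a floor. Between 96.7% and 98.9% of their variance lay between the conditions. The small heat shock protein genes were detected less evenly. *HSP18.2* was above its floor in 40 libraries, *HSP17.4* in 33, *HSP23.6* in 13 and *HSP17.6-II* in 10. *HSP21*, of the chloroplast, and *HSP22*, of the endomembrane system, were above it in 1 library each, replicate 2 of WT at 6 h as IDL and replicate 1 of WT at 6 d as IDL, with a z-score of 6.33 in both. These last 2 genes were not tested, since at least 3 libraries above the floor were required, and 8 of the 10 genes were.

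Promoter windows were read from the TAIR10.1 assembly with its RefSeq annotation, and the deposited table itself gives no coordinates. The windows are the 250 bases before each annotated gene start. They were searched on both strands for the heat shock element as 2 inverted units, GAA then TTC or TTC then GAA with 2 bases between them, and as 3 alternating units (GAA, TTC, GAA or TTC, GAA, TTC) with the same gaps, within which the 2-unit forms overlap. The windows of *HSFA2*, *HSP17.4* and *HSP21* held a 2-unit element, that is, 3 of 10, against 16.1% of 27443 protein-coding windows. Those of *HSFA2* and *HSP17.4* held a 3-unit element, against 0.386% of all. The windows with a match and that of *HSP101*, without one, are shown for comparison, since *HSFA2* and *HSP101* followed each other closely below while *HSP17.4* did not. Capitals mark the elements.
HSFA2, chromosome 2, plus strand, chr2:11135374-11135623: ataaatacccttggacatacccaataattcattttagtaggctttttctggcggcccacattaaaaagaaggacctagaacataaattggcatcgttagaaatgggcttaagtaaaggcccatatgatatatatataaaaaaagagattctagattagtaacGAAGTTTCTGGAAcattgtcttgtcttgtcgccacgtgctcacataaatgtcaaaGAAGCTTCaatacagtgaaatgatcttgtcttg
HSP17.4, chromosome 3, minus strand, chr3:16984868-16985117: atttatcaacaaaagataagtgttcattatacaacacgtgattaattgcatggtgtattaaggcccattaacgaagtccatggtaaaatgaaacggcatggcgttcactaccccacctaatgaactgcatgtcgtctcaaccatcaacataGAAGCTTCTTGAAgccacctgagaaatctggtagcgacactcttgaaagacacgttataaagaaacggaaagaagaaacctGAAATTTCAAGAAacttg
HSP21, chromosome 4, minus strand, chr4:13819972-13820221: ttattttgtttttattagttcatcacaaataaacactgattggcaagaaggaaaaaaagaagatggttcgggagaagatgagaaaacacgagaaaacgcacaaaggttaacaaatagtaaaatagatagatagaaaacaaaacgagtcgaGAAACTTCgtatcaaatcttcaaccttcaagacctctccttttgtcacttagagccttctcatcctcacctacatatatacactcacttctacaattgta
HSP101, chromosome 1, minus strand, chr1:27940370-27940619: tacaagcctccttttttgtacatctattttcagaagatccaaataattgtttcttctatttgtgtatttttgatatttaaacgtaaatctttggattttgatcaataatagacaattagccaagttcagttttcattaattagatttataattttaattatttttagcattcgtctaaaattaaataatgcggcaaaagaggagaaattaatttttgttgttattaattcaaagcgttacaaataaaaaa

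In the *HSFA2* window the 3-unit element began 88 bases before the gene start and a separate 2-unit element 33 bases before it. In that of *HSP17.4* the 3-unit elements began 99 and 18 bases before the start, and the 2-unit element of *HSP21* began 100 bases before it. The window of *HSFA2* overlaps the annotated neighbour AT2G26140 and that of *HSP101* overlaps AT1G74320. Which bases are searched depends on the annotated start, which lies 507 bases before the coding start in *HSP101* and at the coding start itself (0 bases) in *HSP90.1*. When the 250 bases before the coding start were searched instead, a choice made after the first result was seen, 8 of 10 genes held a 2-unit element, against 19.5% of all genes, and 4 a 3-unit element, against 0.627%. The 2 genes without any match there were *HSP101* and *HSP90.1*. For *HSP90.1* this window is the same as the first, so it could give no other result. For *HSP101* the 2 windows do not meet, and the bases between them were not searched. Neither gene can be said to lack an element from this search. A match is a description of letters, not a measured binding site.

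*HSFA2* started high and fell steeply by 6 h in IDLs of both genotypes, and at 1 d and 6 d it was higher in *rpn12a-236*. Its z-scores in WT at 0 d were 1.19, 1.19 and 0.994, and those of *rpn12a-236* were 0.982, 0.940 and 0.777, all below WT but not called (difference -0.22, adjusted p = 0.301). At 6 h as IDLs they were -1.48, -1.10 and -1.23 in WT and -1.74, -1.77 and -1.98 in the mutant. Every IDL of that time lay far below every 0 d leaf of its genotype. Between the genotypes the difference at 6 h was -0.56, not called (adjusted p = 0.0107) but called without WT replicate 1 (0.0073). The fall from 0 d was -2.40 ± 0.15 in WT (SE, adjusted p = 1.2e-11) and -2.73 ± 0.15 in the mutant (adjusted p = 3.7e-12).

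At 1 d the genotypes parted in *HSFA2*. WT IDLs had z-scores of -1.33, -1.81 and -1.52, and *rpn12a-236* IDLs of -0.0468, -0.0452 and -0.238. All 3 mutant libraries lay above all 3 WT libraries, with a difference of 1.44 ± 0.15 (adjusted p = 2.2e-07). At 3 d the genotypes overlapped, WT at 0.575, 0.713 and 0.641 and the mutant at 0.550, 0.824 and 0.403. At 6 d WT IDLs were at -0.170, -0.119 and -0.139 and the mutant at 0.409, 0.601 and 0.543. The mutant was again above WT in every library, by 0.66 ± 0.15 (adjusted p = 9.7e-04), although in a fit on these 6 libraries alone the adjusted p was 0.0277.

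*HSP101*, the cytosolic disaggregase, also differed at 1 d but started from a lower z-score in the mutant. At 0 d its z-scores were 1.22, 1.17 and 0.931 in WT and -0.218, 0.410 and -0.0757 in *rpn12a-236*. The groups did not overlap, and the mutant was lower by -1.07 ± 0.22 (adjusted p = 7.9e-04), with an adjusted p of 0.0180 in a fit on the 6 libraries alone. *HSP101* lies on chromosome 1, as do *RPN12a* and the other coding changes of the line, and their part in this difference was not tested. After 6 h as IDLs they overlapped, WT at -1.30, -1.15 and -1.60 and the mutant at -1.38, -1.46 and -1.99. After 1 d WT had stayed low, at -1.56, -1.49 and -1.70, whereas the mutant was at 0.448, 0.369 and 0.213. This difference of 1.93 ± 0.22 (adjusted p = 6.5e-07) was called also in a fit on the 6 libraries alone and without any single library.

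From 3 d on, *HSP101* no longer favoured the mutant. At 3 d the z-scores were 0.990, 0.984 and 0.727 in WT and 0.691, 1.25 and 0.447 in the mutant, and they overlapped. At 6 d they were 0.568, 0.566 and 0.190 in WT and -0.524, -0.361 and -0.00243 in *rpn12a-236*. The mutant was lower by -0.74 ± 0.22 (adjusted p = 0.0080). That call was lost without WT replicate 1 or 2 or without mutant replicate 1 or 2, at adjusted p of 0.0339, 0.0343, 0.0437 and 0.0235, and on the 6 libraries alone (0.0446).

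**Figure D1:**
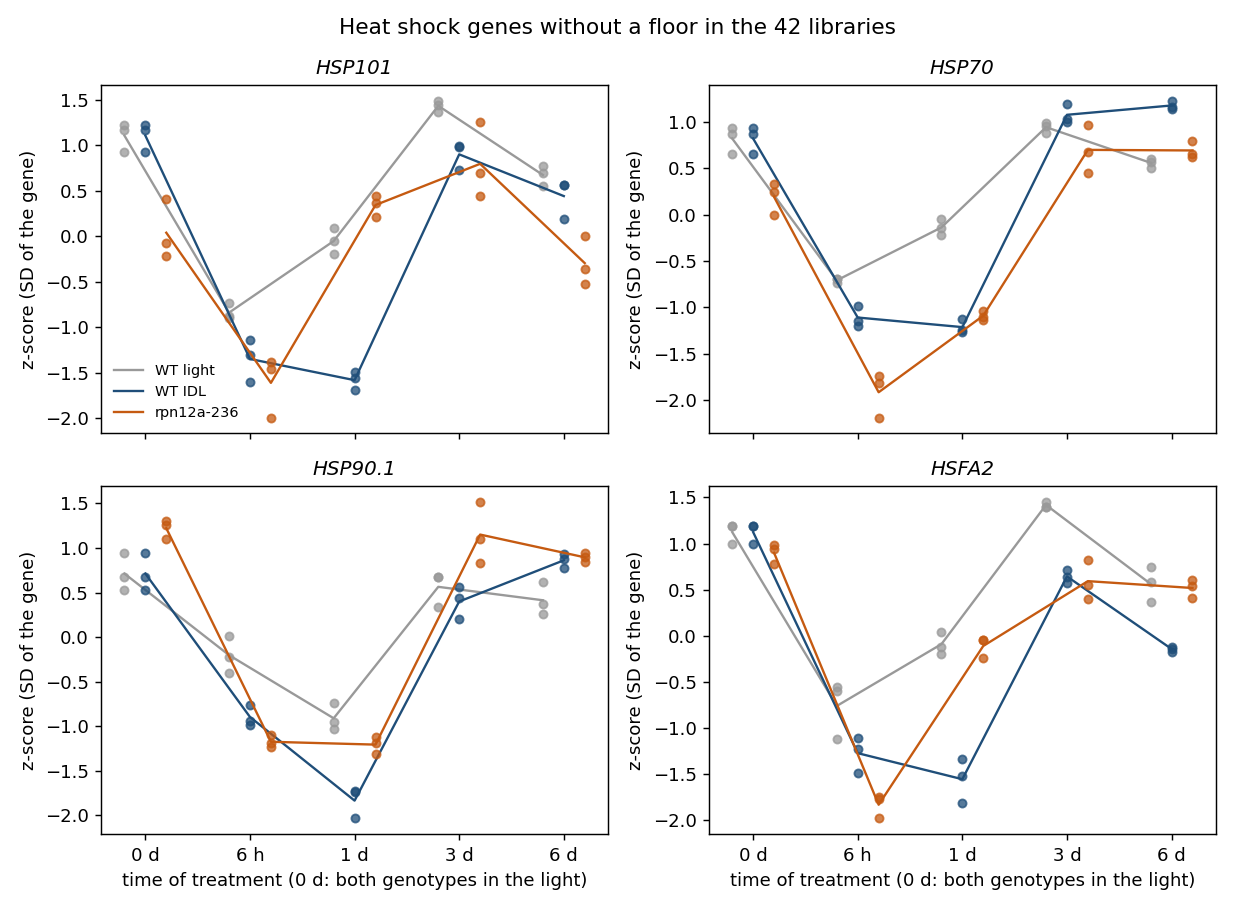
z-scores of *HSP101*, *HSP70*, *HSP90.1* and *HSFA2* (y axis, in SDs of the gene over 42 libraries) at each time of treatment (x axis) in WT light leaves, WT IDLs and *rpn12a-236*. Points are the 3 libraries of a condition and lines join the means; at 0 d both WT series show the same 3 light libraries. At 1 d the *HSP101* values of the mutant lie between 0.213 and 0.448 and those of WT IDLs between -1.70 and -1.49.

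*HSP70*, an inducible cytosolic HSP70, was called lower in the mutant at 0 d and 6 h. Its z-scores at 0 d were 0.938, 0.876 and 0.653 in WT and 0.329, 0.247 and 0.00122 in *rpn12a-236*, a difference of -0.63 ± 0.15 (adjusted p = 0.0035). At 6 h as IDLs they were -0.981, -1.14 and -1.20 in WT and -2.19, -1.82 and -1.74 in the mutant, a difference of -0.81 ± 0.15 (adjusted p = 5.6e-04). Neither pair of groups overlapped. On the 6 libraries of a time alone the adjusted p were 0.0414 and 0.0563. The 0 d call was also lost without WT replicate 1 or 2 or without mutant replicate 3, at 0.0206, 0.0161 and 0.0255.

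At 1 d *HSP70* was not called. WT IDLs were at -1.25, -1.13 and -1.26 and mutant IDLs at -1.100, -1.13 and -1.03, and they overlapped (difference 0.12 ± 0.15, adjusted p = 0.583). At 3 d WT was at 1.00, 1.20 and 1.04 and the mutant at 0.680, 0.965 and 0.454, and at 6 d WT at 1.16, 1.23 and 1.14 and the mutant at 0.797, 0.626 and 0.658. All mutant libraries lay below all WT libraries at both times without a call (adjusted p = 0.0551 and 0.0121). In 1 fit of all 42 libraries the 6 d difference was called, at an adjusted p of 0.0040.

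*HSP90.1*, the heat-inducible cytosolic HSP90, was called higher in the mutant at 1 d and 3 d. Its z-scores at 0 d were 0.939, 0.671 and 0.529 in WT and 1.31, 1.26 and 1.099 in *rpn12a-236*, without overlap but not called (0.51 ± 0.16, adjusted p = 0.0237). At 6 h as IDLs WT was at -0.982, -0.946 and -0.760 and the mutant at -1.10, -1.24 and -1.18. Both genotypes were low at that time, and the mutant libraries lay below those of WT without a call (adjusted p = 0.260). At 1 d WT was at -1.74, -2.03 and -1.73 and the mutant at -1.32, -1.12 and -1.18, a difference of 0.63 ± 0.16 (adjusted p = 0.0048). At 3 d WT was at 0.200, 0.566 and 0.435 and the mutant at 1.103, 1.52 and 0.829, a difference of 0.75 ± 0.16 (adjusted p = 8.6e-04).

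Both *HSP90.1* calls rested on single libraries. That of 1 d was lost without WT replicate 2 or mutant replicates 2 or 3, at adjusted p of 0.0298, 0.0216 and 0.0171. That of 3 d was lost without mutant replicate 2, at 0.0110. On the 6 libraries alone the adjusted p were 0.0532 and 0.0371. At 6 d the genotypes overlapped in *HSP90.1*, with WT at 0.877, 0.933 and 0.776 and the mutant at 0.942, 0.898 and 0.847.

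**Figure D2:**
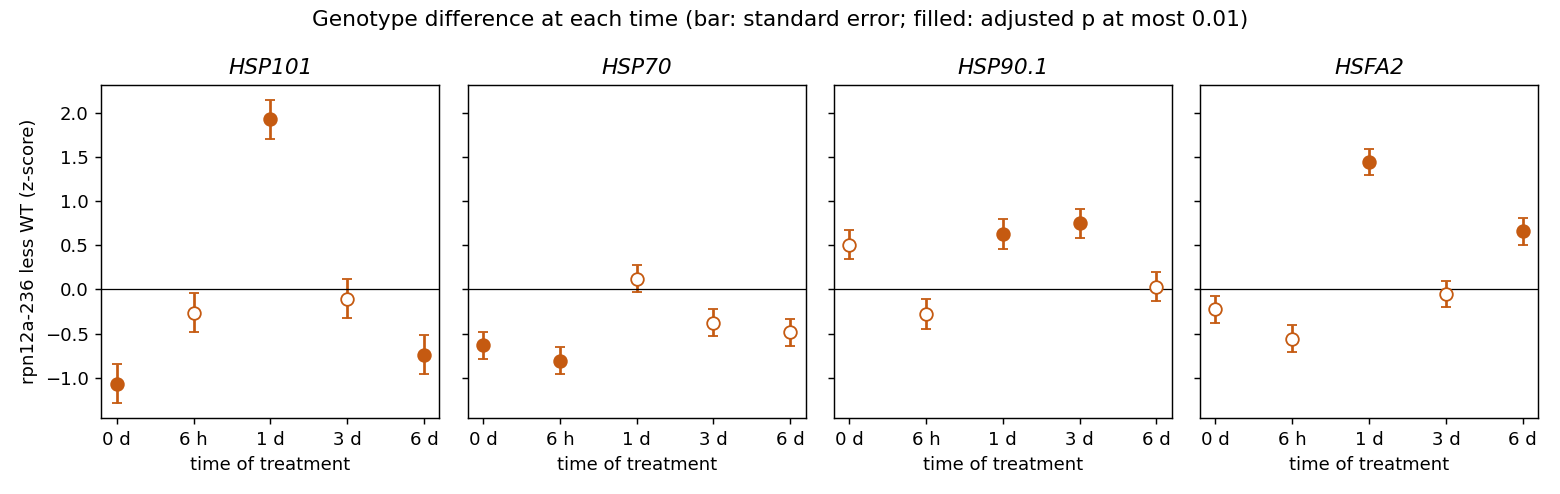
Difference of *rpn12a-236* less WT (y axis, z-score units) at each time (x axis) for the 4 genes without a floor. Points are fitted differences, bars their standard error, and filled points were called (adjusted p up to 0.01). At 1 d *HSP101* and *HSFA2* stand 1.93 and 1.44 above 0 while *HSP70* stands at 0.12.

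The small heat shock protein genes did not follow these 4. *HSP17.4*, a cytosolic class I protein, was at its floor of -1.26 in 2 of 3 WT and 1 of 3 mutant libraries at 0 d, with 0.365 in the remaining WT library and -0.104 and -0.223 in the mutant. It rose late, to 0.890, 1.62 and 0.859 in WT and to 2.50, 1.09 and 3.00 in *rpn12a-236* at 6 d. Every IDL at 6 d was above every 0 d leaf of its genotype, by 1.84 ± 0.45 in WT (adjusted p = 0.0010) and by 2.73 ± 0.45 in the mutant (adjusted p = 1.2e-05). The WT call was at 0.0160 on its 6 libraries alone. In the mutant *HSP17.4* was also called at 3 d, at 0.789, 1.22 and 0.826 (difference 1.48, adjusted p = 0.0070). That call was lost without mutant replicate 3 of 0 d (0.0578) or replicates 1, 2 or 3 of 3 d (0.0134, 0.0309 and 0.0147). The WT rise at 3 d was 1.17, not called (adjusted p = 0.0292) but called without WT replicate 2 of 0 d (0.0022). Between genotypes the 3 d difference of 0.49 was not called (adjusted p = 0.422), although the mutant libraries lay above those of WT. The genotypes overlapped at 6 d, and their difference of 1.08 was not called (adjusted p = 0.0533), although without mutant replicate 2 it was 1.63 (adjusted p = 0.0040).

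*HSP17.6-II*, a cytosolic class II protein, was detected together in all replicates in 1 condition only, WT IDLs at 6 d. There it had z-scores of 3.29, 2.68 and 1.31, while all 3 *rpn12a-236* libraries of that time were at the floor of -0.509. The difference was -2.93 ± 0.55 (adjusted p = 1.2e-04), and it was called without any single library. A fit on the 6 libraries alone gives no further support. The gene met the filter there only through the 3 WT libraries in which it was high. Elsewhere it was above the floor in 7 libraries, at 1.01 and 1.12 in WT at 0 d, 1.52 in the mutant at 0 d, and in single libraries of 4 more conditions. In WT the rise from 0 d to 6 d was 1.88 ± 0.55 (adjusted p = 0.0051), lost without WT replicate 3 of 0 d or replicates 1 or 2 of 6 d (0.0503, 0.0427 and 0.0211) and on the 6 libraries alone (0.0394). The gene was above the floor in 8 of the 30 libraries of the fit, 3 of them in that group.

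The remaining members were too sparse or too scattered for a call between genotypes. *HSP23.6*, a mitochondrial protein, was at 1.88, 1.33 and 1.12 in the mutant at 0 d and at the floor of -0.635 in all 3 WT libraries, a difference of 2.08 ± 0.77 with an adjusted p of 0.0487. On those 6 libraries alone the adjusted p was 0.0037. That value gives no support, since the gene met the filter there only through the 3 mutant libraries and WT had no spread. It was at the floor in all 3 mutant libraries at 6 h. *HSP18.2*, another class I protein, had the widest scatter of the tested genes after *HSP23.6* (within-group SD 0.852 and 0.889). At 0 d it was at 1.70, 1.72 and 0.834 in WT and at -0.473, -0.972 and 1.19 in the mutant. The groups overlapped and were not called (adjusted p = 0.138). In the mutant at 6 d it ranged from -0.0236 to 2.34. Its replicate 3 at 1 d was at the floor of -2.73 in both genotypes. In WT it was lower at 1 d as IDL than at 0 d by -2.70 ± 0.73 (adjusted p = 0.0034), a call lost without WT replicate 1 or 2 of 0 d or replicate 3 of 1 d (0.0147, 0.0147 and 0.0376) and on the 6 libraries alone (0.0123).

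**Figure D3:**
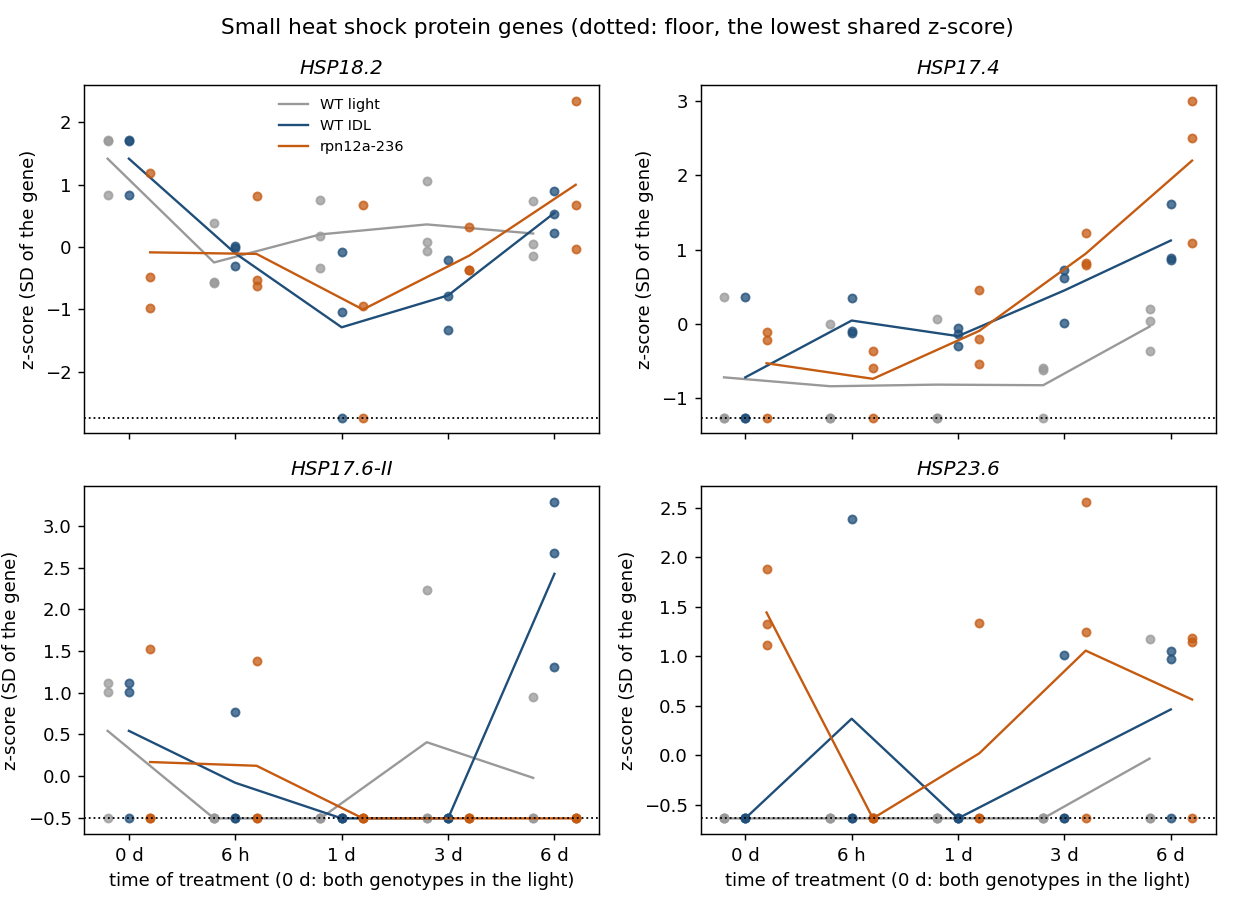
z-scores of the small heat shock protein genes *HSP18.2*, *HSP17.4*, *HSP17.6-II* and *HSP23.6* (y axis, in SDs of the gene) by time of treatment (x axis) in WT light leaves, WT IDLs and *rpn12a-236*; points are libraries, lines join means, and the dotted line is the floor. *HSP17.6-II* is at its floor of -0.509 in every mutant library at 6 d and at 1.31 to 3.29 in WT IDLs.

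Counted over the 8 tested genes, the mutant was called different from WT in 2 genes at 0 d, 1 gene at 6 h, 3 genes at 1 d, 1 gene at 3 d and 3 genes at 6 d. Of all 24407 genes tested, 17.2%, 11.4%, 22.5%, 27.6% and 35.1% were called at these times. At 1 d the 3 called genes (*HSP101*, *HSP90.1* and *HSFA2*) were all higher in the mutant, where 11% of all genes were called higher. The median difference of the 8 genes was -0.30, -0.42, 0.46, 0.25 and 0.067 in the order of the times, while that of all genes lay between -0.03 and 0. The libraries of the genotypes did not overlap in 5, 4, 3, 3 and 4 of the 8 genes at the 5 times, against 42.3%, 32.3%, 42.2%, 49.7% and 49.5% of all genes. At 1 d all 3 of these had the mutant above WT, and at 6 h all 4 had it below. The clock genes CCA1, LHY and TOC1 were not called between genotypes at 1 d (differences 0.21, -0.34 and 0.12, adjusted p of LHY 0.0237). Their libraries did not overlap at that time either. CCA1 was at 0.050 to 0.103 in WT and 0.258 to 0.308 in the mutant. LHY was at 0.323 to 0.346 and -0.098 to 0.047, and TOC1 at 0.347 to 0.403 and 0.419 to 0.577. TOC1 was called higher in the mutant at 0 d (0.77), 3 d (0.48) and 6 d (1.13) and CCA1 at 6 d (0.47). The part of the clock genes in the differences was not tested at any time.

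The other heat shock genes were called in both directions between genotypes at every time, and at 3 d mostly higher in the mutant. Of 64 listed genes (other small heat shock proteins, HSP70s, HSP90s, organellar HSP100s, heat stress transcription factors and co-chaperones) 62 were tested. In the mutant 8 were called higher and 4 lower at 0 d, then 4 and 8 after 6 h, 11 and 7 after 1 d, 16 and 3 after 3 d, and 17 and 8 after 6 d. Of all genes, 7.93% and 9.26% were called higher and lower at 0 d, and 4.73% and 6.66% after 6 h. The later shares of all genes were 11% and 11.4%, 13.4% and 14.2%, and 17.2% and 17.9%. The totals of 12, 12, 18, 19 and 25 of 62 stand beside 17.2%, 11.4%, 22.5%, 27.6% and 35.1% of all genes called in either direction. On the 6 libraries of a time alone these totals were 5, 0, 8, 17 and 16. In those fits 9.15%, 1.97%, 11.6%, 27.2% and 25.4% of all genes were called.

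At 1 d the largest rises in that list were in the class I gene *HSP17.8-CI* (2.54, from -1.42 in WT to 1.12 in the mutant), the mitochondrial HSP100 gene *CLPB4* (1.56) and *HSFA4C* (1.49). The largest falls were in *HSP70B* (-2.75), the constitutive *HSC70-1* (-1.61) and *GOLS1* (-1.11), which makes galactinol. HSP70 genes were thus called on both sides: 1 of 9 higher and 4 of 9 lower, against 11% and 11.4% of all genes. At 6 d the class I gene *HSP17.6C-CI* was the most strongly lower of the list (-3.33), with 2.79 in WT and all mutant libraries at its floor of -0.545. This is the pattern of *HSP17.6-II* at that time.

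Against their own 0 d leaves, IDLs were lower in the 4 genes without a floor at 6 h in both genotypes and at 1 d in WT. This comparison holds the hour and the day of harvest together with darkness, which in the mutant cannot be told apart. In WT, IDLs differed from 0 d in 4 of 8 genes at 6 h, all lower (20.4% of all genes were called lower), in 5 at 1 d, all lower (22%), in 1 at 3 d, lower, and in 3 at 6 d, of which 2 were higher. Of all genes 39.1%, 41.7%, 46.8% and 50% were called in either direction. In *rpn12a-236* the counts were 4 lower at 6 h, 3 lower at 1 d, 3 higher at 3 d and 2 higher at 6 d, against 18.4%, 22.8%, 22% and 24% of all genes called in that direction and 34.9%, 43%, 46.7% and 50.7% in either. The medians of the 8 genes were -1.56 and -2.29 in WT at 6 h and 1 d and -1.86 and -0.96 in the mutant, against 0 to 2 decimals and -0.03 for all genes.

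In WT the fall at 1 d was -2.69 ± 0.22 in *HSP101*, -2.03 ± 0.15 in *HSP70*, -2.55 ± 0.16 in *HSP90.1* and -2.68 ± 0.15 in *HSFA2* (adjusted p of 5.1e-10 at most). In the mutant it was -1.28 ± 0.15 in *HSP70*, -2.43 ± 0.16 in *HSP90.1* and -1.01 ± 0.15 in *HSFA2*, whereas *HSP101* changed by 0.30 ± 0.22 (adjusted p = 0.261). The late values returned to or above the start in *HSP70*, called at 3 d and 6 d in the mutant (0.51 and 0.50, adjusted p = 0.0069 and 0.0070). The 3 d call of *HSP101* in the mutant (0.76, adjusted p = 0.0050) started from its low 0 d values. Each of these 3 late calls was lost on the 6 libraries alone (0.0706, 0.0793 and 0.0545). Each was also lost without mutant replicate 3 of 0 d, at 0.0463, 0.0466 and 0.0220. The *HSP70* calls were lost without replicate 2 of 0 d (0.0136 at 3 d and 0.0135 at 6 d), replicates 1 or 2 of 3 d (0.0170 and 0.0607) or replicates 1 or 3 of 6 d (0.0305 and 0.0142). That of *HSP101* was lost without replicate 1 of 0 d (0.0328) or replicate 2 of 3 d (0.0539).

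In the list of other heat shock genes more were called lower than higher at 6 h and 1 d. Of the 62 tested, 11 were called higher and 31 lower in WT at 6 h (18.7% and 20.4% of all genes), then 9 and 32, 12 and 21, and 9 and 21 at the later times. The shares of all genes at these later times were 19.7% and 22%, 22.2% and 24.6%, and 23.8% and 26.2%. In *rpn12a-236* the counts were 8 and 38, 9 and 32, 17 and 19, and 15 and 18. There the shares of all genes were 16.5% and 18.4%, 20.2% and 22.8%, 22% and 24.7%, and 24% and 26.7%. The same shares stand beside the group counts that follow. At 6 h and at 1 d in both genotypes 5 of 5 HSP90 genes and 2 of 2 organellar HSP100 genes were called lower. Of 9 HSP70 genes, 5 and 6 were called lower in WT at 6 h and 1 d and 7 and 8 in the mutant, and none higher. At 6 h the largest falls in WT were in the chloroplast HSP100 gene *CLPB3* (-2.93), the chloroplast HSP70 gene *CPHSC70-2* (-2.63) and *HSP90.2* (-2.63). The ubiquitin ligase gene *CHIP*, whose product works with HSP70 and HSP90, had the largest rise from 0 d in WT at 6 h (2.38). Against uncovered WT leaves of that hour, *CHIP* was not called higher. The 1 of 17 co-chaperone and heat response genes called higher there was *HSA32*. At 1 d *CHIP* was called higher in WT IDLs than in light leaves of that time (1.79). At 6 d the largest rise in WT was in *HSP17.6C-CI* (2.85), and those in the mutant were in the transcription factor gene *DREB2A* (3.14), in *HSFA7A* (2.82) and in *HSP15.7-PX* (2.79), a peroxisomal small heat shock protein. Uncovered WT leaves of 6 h had 7 of the 62 genes called higher and 29 lower than 0 d. Of all genes, 10.3% and 13.4% were called so. Among the HSP70 genes 1 of 9 was higher and 7 were lower there. Against these light leaves the WT IDLs of 6 h had 7 genes higher and 27 lower (18.1% and 18.4% of all genes).

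*HSFA2* in WT did not return. It was below 0 d at 3 d (-0.48, adjusted p = 0.0093) and at 6 d (-1.27 ± 0.15, adjusted p = 1.4e-07). The 3 d call was near the threshold and was lost without WT replicates 1 or 2 of 0 d (0.0338 and 0.0342), without replicates 1, 2 or 3 of 3 d (0.0335, 0.0161 and 0.0245), without the filter on low values (0.0108) and on the 6 libraries alone (0.0278). In the mutant at 6 d the difference from 0 d was -0.38 (adjusted p = 0.0338).

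The response to darkening differed between the genotypes in 2 of the 8 genes at 1 d and in 1 at 6 d. At 1 d the interaction was 2.99 ± 0.31 in *HSP101* (adjusted p = 1.2e-06) and 1.67 ± 0.21 in *HSFA2* (adjusted p = 1.3e-05), and it was 0.88 ± 0.21 in *HSFA2* at 6 d (adjusted p = 0.0027, and 0.0114 on the 4 groups of that comparison alone). Of all genes 12.7% and 21.4% had a called interaction at these times. None of the 8 was called at 6 h and 3 d, where 3 and 1 had an unadjusted p under 0.05 in limma and 7.48% and 15.1% of all genes were called. In the heat shock list, 8, 10, 11 and 16 of 62 genes had a called interaction in the order of the 4 times. The largest at 1 d was in *HSP17.8-CI* (2.72), with mean z-scores at 1 d of -1.42 in WT and 1.12 in the mutant, and the next in *HOP3* (2.55) and *HSFA4C* (2.06). The *HSP101* interaction at 1 d contains its lower 0 d value in the mutant as well as its higher 1 d value.

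The early fall was also seen in WT leaves that were never covered. At 6 h, in leaves harvested at 2 pm, the WT light values of *HSFA2* were -0.603, -0.556 and -1.12. Those of *HSP101* were -0.736, -0.903 and -0.881. Both were far below the 8 am values of 0 d, by -1.88 ± 0.17 and -1.95 ± 0.15, and *HSP70* (-1.53) and *HSP90.1* (-0.91, adjusted p = 0.0434 on the 6 libraries alone) were called lower as well, 4 of 8 in all against 23.7% of all genes (13.4% lower). The hour of harvest moved with this comparison: the morning clock genes CCA1 and LHY were lower at 6 h in the light by -2.56 and -2.63, and the evening gene TOC1 was higher by 2.73. Against light leaves of the same hour, WT IDLs at 6 h were called lower in *HSP101* (-0.51, adjusted p = 0.0096) and *HSP90.1* (-0.69, adjusted p = 0.0017), 2 of 8 genes against 36.5% of all, while *HSP70* (-0.40, adjusted p = 0.0102) and *HSFA2* (-0.51, adjusted p = 0.0151) were not called. The *HSP101* call at 6 h was near the threshold and was lost on the 6 libraries alone (0.168), on all 42 (0.0320), without the filter on low values (0.0113), without any WT light replicate (0.0384, 0.0144 and 0.0133) and without IDL replicates 1 or 3 (0.0191 and 0.0655). That of *HSP90.1* was lost on the 6 libraries alone (0.0789) and without WT light replicate 1 (0.0130).

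At 1 d the light leaves were harvested at the same hour as those of 0 d, and the 4 genes were low again. *HSP101* had z-scores of 0.0881, -0.0521 and -0.195, *HSP70* of -0.146, -0.0451 and -0.219, *HSP90.1* of -0.954, -0.743 and -1.03, and *HSFA2* of -0.121, 0.0425 and -0.193. Not 1 of these libraries reached the lowest 0 d value of its gene. The differences from 0 d were -1.16 ± 0.15, -0.96 ± 0.12, -1.62 ± 0.17 and -1.21 ± 0.17 (adjusted p of 1.1e-04 at most). These 4 of 8 genes stand against 3.23% of all 24166 genes tested (1.99% lower), a smaller background than in any comparison with darkened leaves here. CCA1, LHY and TOC1 differed from 0 d by 0.23, 0.24 and 0.06 at 1 d and were not called (adjusted p = 0.297, 0.232 and 0.917). The light libraries of 1 d still lay above those of 0 d in CCA1 (0.996 to 1.05 against 0.741 to 0.842). In LHY they did so too (1.12 to 1.15 against 0.855 to 0.929), and in TOC1 they overlapped. The part of these clock genes was not tested.

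Of the 62 other heat shock genes tested, 22 were called lower in the 1 d light leaves than at 0 d, 0 higher and 40 in neither direction. The 22 held 5 of 5 HSP90 genes, 2 of 2 organellar HSP100 genes, 3 of 9 HSP70 genes, 7 of 17 co-chaperone and heat response genes and 1 of 12 class A heat stress transcription factors. The largest falls were in *HSFA4A* (-2.01), the co-chaperone gene *HOP3* (-1.87) and *HSP17.8-CI* (-1.74). The list had a median difference of -0.61, against 0 to 2 decimals over all genes. At 3 d 0 of the 8 genes were called against 0 d (2 had an unadjusted p under 0.05 in limma, 1.08% of all genes called), and at 6 d also 0 (4 under 0.05, 1.27% called). The 3 d light values of *HSFA2*, at 1.45, 1.40 and 1.40, and of *HSP101*, at 1.37, 1.49 and 1.44, were the highest of all 14 conditions. *HSP70* was at 0.990, 0.886 and 0.957 and *HSP90.1* at 0.678, 0.335 and 0.680 in the same leaves, within or near their ranges at 0 d. At 6 d in the light *HSFA2* was at 0.740, 0.581 and 0.365 and *HSP101* at 0.775, 0.697 and 0.549, all below their 0 d values without a call (adjusted p = 0.0508 and 0.104). In a fit on the 6 libraries alone no gene at all was called at 1 d (0 of 21307, with 26.8% at an unadjusted p under 0.05), and the adjusted p of the 4 genes were 0.0150 to 0.0250; the calls rest on the spread shared over the 27 WT libraries. They held without any single library.

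**Figure D4:**
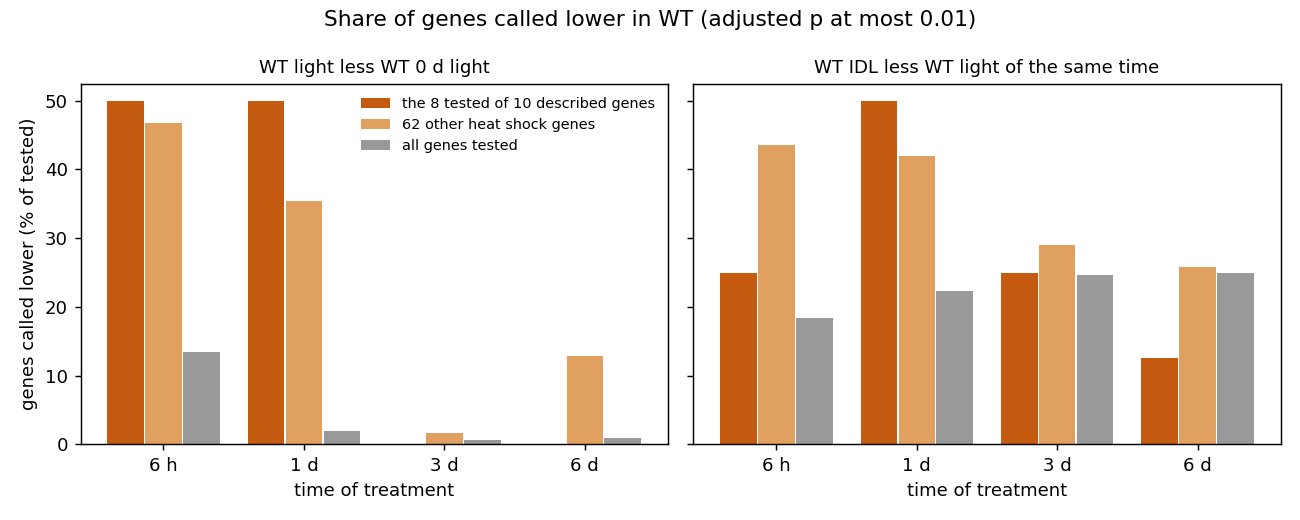
Share of tested genes called lower (y axis, percent) in WT light leaves against 0 d (left) and in WT IDLs against WT light leaves of the same time (right), by time of treatment (x axis). The bars show the 8 tested of the 10 genes, 62 other heat shock genes and all genes tested; at 1 d in the light they stand at 50%, 35.5% and 1.99%.

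Set against light leaves of the same day and hour, WT IDLs at 1 d were lower in all 4 genes: by -1.53 ± 0.15 in *HSP101*, -1.08 ± 0.12 in *HSP70*, -0.92 ± 0.17 in *HSP90.1* and -1.46 ± 0.17 in *HSFA2* (adjusted p of 8.6e-05 at most). That was 4 of 8 genes, against 40.9% of all (22.3% lower). The difference from light leaves of 1 d was smaller in each of these 4 genes than that from 0 d, with which it shares the IDLs. Clock genes also differed between these IDLs and light leaves of 1 d. CCA1 (-0.94) and LHY (-0.81) were called lower and TOC1 (1.58) higher in IDLs, and their part was not tested. For *rpn12a-236* the day and darkness cannot be told apart, since its 1 d leaves were all IDLs. Its *HSP101* values at 1 d (0.213 to 0.448) lay above those of the WT light leaves of 1 d (-0.195 to 0.0881), and its *HSFA2* values (-0.238 to -0.0452) overlapped them (-0.193 to 0.0425), which was not tested.

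Later the genes differed in direction in WT IDLs. At 3 d *HSFA2* (-0.77, adjusted p = 4.4e-04) and *HSP101* (-0.53, adjusted p = 0.0057) were lower in IDLs than in light leaves, 2 of 8 against 45.5% of all genes. The *HSP101* call was lost on the 6 libraries alone (0.0198), on all 42 (0.0210), without any WT light replicate (0.0112, 0.0220 and 0.0175) and without IDL replicate 3 (0.0356), and without IDL replicate 2 it stood just above the threshold of 0.01. At 6 d *HSP70* was higher by 0.62 ± 0.12 (adjusted p = 1.8e-04), with 1.16, 1.23 and 1.14 in IDLs and 0.603, 0.571 and 0.508 in the light. *HSP17.6-II* was higher by 2.45 (adjusted p = 0.0018) and *HSFA2* lower by -0.70 (adjusted p = 0.0010), 3 of 8 in all against 47.2%. The *HSP17.6-II* call was lost on the 6 libraries alone (0.0122), without light replicates 1 or 3 (0.0110 both) and without IDL replicate 1 (0.0155). The transcription factor and the inducible chaperone *HSP70* thus lay on opposite sides of the light leaves at 6 d.

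Across the 14 condition means *HSFA2* and *HSP101* had the most similar pattern of the 10 genes (Pearson r = 0.92, given as a description, since the points share libraries). *HSP70* had r = 0.86 with *HSFA2* and 0.84 with *HSP101*, and *HSP90.1* had 0.80 and 0.69. *HSP18.2* reached 0.48 with *HSFA2* and *HSP17.4* only 0.14. The order of the *HSFA2* means ran from WT light at 3 d (1.42) and 0 d (1.12) and mutant light at 0 d (0.90) down to WT IDLs at 1 d (-1.55) and mutant IDLs at 6 h (-1.83), and in 8 of 13 neighbouring pairs of this order the libraries overlapped. For *HSP101*, *HSP70* and *HSP90.1* they overlapped in 10, 6 and 9 of 13.

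Among 24923 other genes the 5 with the highest r to *HSFA2* over the 14 means were *SR45a* (0.93), which encodes a splicing-related protein, AT1G73630 (0.93), *TPR2* (0.93), AT3G09440 (0.92), the constitutive HSP70 gene *HSC70-3*, and AT2G46735 (0.91). Those most like *HSP101* were AT2G46735 (0.91), *SK20* (0.91), *SR45a* (0.90), AT1G51340 (0.89) and *TPR2* (0.89). The lists had 3 genes in common, *SR45a*, *TPR2* and AT2G46735.

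Reads of close relatives could be shared in the counting of transcripts. The nearest other coding sequence was 76.2% to 79.3% identical over the aligned bases for the 4 genes without a floor: *CLPB2* for *HSP101* (77.9%), *HSP70-2* for *HSP70* (79.2%), *HSP90.3* for *HSP90.1* (79.3%) and *HSFA7A* for *HSFA2* (76.2% over 307 bases). It was 85% for *HSP17.4* (*HSP17.6C-CI*) and 86.9% for *HSP17.6-II* (*HSP17.7-CII*), whose values are the less certain ones in this respect. For *HSP18.2* it was 78.8%, for *HSP23.6* 72.5% and for *HSP22* 68.9%, and *HSP21* had no match.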

How the data were processed

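RNA of leaf blades from 14 conditions with 3 replicates each was sequenced. According to the study's methods the authors filtered out rRNA, trimmed with Trimmomatic, quantified TAIR10 cDNA strand-specifically with kallisto 0.43.0, summed transcripts to genes and applied the variance stabilizing transformation of DESeq2 1.14.1. The deposited values have the unit score: 1 z-score per gene and library (mean 0, SD 1 over 42 libraries), made by the authors from those normalized values. Scaling per gene removes levels, folds and depth, and a gene seen in few libraries gets large z-scores from few reads. The number of value columns mapped to no sample was 0. No columns of comparisons by the authors were used.

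Groups came from the sample labels. limma 3.58.1 in R 4.3.3 was fitted on 30 libraries (10 groups: genotype, IDL against own 0 d, interaction; 24407 genes) or on the 27 WT libraries (9 groups; 24166 genes), 25 contrasts in all, without a replicate block. A gene was tested with at least 3 libraries of the fit above its floor (values equal within 1e-06). p-values measure the spread between pools of leaves. An exact test of 3 against 3 libraries cannot go below 0.10 and was not used. On simulated z-scores of the genotype contrast at 1 d with 24407 genes, shifts of 2, 4, 8 and 16 within-group SDs were recovered in 1, 28, 50 and 50 of 50 genes each, with 3 false calls. The simulation drew normal noise with the same SD in every group of a gene and held no floors. Only genes without a floor were shifted, so it does not cover calls of genes with a floor.

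The 10 genes, the 64 other heat shock genes and the tests were chosen with earlier results of these data known, and the clock genes CCA1, LHY and TOC1 after the data were seen. Other heat shock genes named are the 3 with the largest difference in a direction among those called in a contrast, with *HSP17.6C-CI* and group counts beside them, and for likeness the 5 with the highest r. Alternatives were fits on 42 libraries or only the groups compared, no filter, thresholds of 0.001 and 0.05, the replicate block, each library left out, other measures of likeness and a 3-unit motif; the window before the coding start was added after seeing the data. Promoters and coding sequences came from RefSeq on TAIR10.1, read with Python 3.11.15; blastn 2.17.0 compared coding sequences, and matplotlib 3.10.9 drew the plots.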

Additional observations from a re-analysis of the deposited data

Results flagged for a closer look

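The genotypes differed in their response to darkening, by the test of the difference itself, in *HSP101* at 1 d and in *HSFA2* at 1 d and 6 d. The *HSP101* interaction at 1 d was 2.99 z-score units: WT fell by 2.69 from 0 d and *rpn12a-236* moved by 0.30. In *HSFA2* the interaction was 1.67 at 1 d, where WT fell by 2.68 and the mutant by 1.01. At 6 d it was 0.88, with a fall of 1.27 in WT. WT light leaves of 1 d were also below 0 d in both genes, by -1.16 and -1.21, and in the mutant the effect of the day cannot be told apart from that of darkness, because mutant light leaves were sampled only at 0 d.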

How the results depend on the processing

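With the replicate number as a block, the calls over the 8 genes were 10, 26, 3, 11 and 8 (genotype, IDL against 0 d, interaction, WT IDL against light, WT light against 0 d), beside 10, 25, 3, 11 and 8 without it. The block added *HSP101* in WT at 6 d against 0 d (adjusted p = 0.0048) and changed no other call; deviations of same-numbered libraries correlated by -0.138 to 0.237 over 15 pairs, so the numbers were not taken as pairs. Counts that moved by over 1.5 times were those of a fit on only the groups compared, 4 between genotypes and 3 in WT light against 0 d, those of the interaction, 5 on 42 libraries and 7 at an adjusted p of 0.05, and those of WT IDL against light, 6 at 0.001 and 17 at 0.05. The 4 between genotypes include *HSP23.6* at 0 d and *HSP17.6-II* at 6 d, which met the filter there only through 1 group. Leaving out 1 library gave 9 to 11, 20 to 26, 3 to 4, 9 to 12 and 8 to 9 calls. No difference called changed its sign under any alternative run, which is no sign of stability. The other fits had the same group means, so their differences could not change. Leaving out 1 library could not reverse a difference between 2 groups that did not overlap. The other heat shock genes called between genotypes numbered 86 over the 5 times, and 46 on only the groups compared and 57 at 0.001. Those called in WT light against 0 d numbered 69, and 10 on only the groups compared and 41 at 0.001; those with a called interaction numbered 45, and 26 at 0.001 and 72 at 0.05. Of the 5 genes most like *HSFA2*, 2 were shared with the list by Spearman rho and 3 with that by r over 42 libraries; for *HSP101* the numbers were 1 and 4. Depth per library is unknown, genes near their floor rest on few reads, and a fit on 6 libraries has few degrees of freedom.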

Other observations

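Of 12 other class A heat stress transcription factors tested, 6 were called higher and 0 lower in WT IDLs at 6 h against 0 d, where 18.7% of all genes were called higher and *HSFA2* was called lower. The counts were also 6 and 0 in WT at 1 d (19.7% of all genes higher) and in *rpn12a-236* at 6 h (16.5%). Set against uncovered WT leaves of that hour, 3 were called higher and 1 lower at 6 h (18.1% of all genes higher) and 8 higher and 0 lower at 1 d (18.7%). At 6 h the largest rises from 0 d in WT were in *HSFA3* (2.096) and *HSFA8* (1.82), and at 1 d they were in *HSFA1E* (1.98) and *HSFA1B* (1.62). HSFA1 proteins are the constitutive master regulators of the heat response. WT light leaves of 6 h had *HSFA8* and *HSFA3* above 0 d by 2.66 and 2.62, and against them the IDLs of 6 h were lower in *HSFA8* (-0.83) and not called in *HSFA3* (-0.53).

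Between genotypes, 5 of the 12 class A factors were called higher in the mutant at 3 d and 5 at 6 d, and 0 lower at either time, against 13.4% and 17.2% of all genes called higher. *HSFA8* (2.48) and *HSFA1B* (2.29) led at 3 d, and *HSFA1E* (2.65) at 6 d, with z-scores of -1.07 in WT and 1.59 in the mutant. The class B factor *HSFB1*, which lacks an activation domain, was lower in the mutant at 6 h (-1.91), 3 d (-2.09) and 6 d (-2.38). The mitochondrial HSP70 gene *MTHSC70-1* was higher in the mutant at 0 d (1.71), 6 h (1.44), 3 d (1.70) and 6 d (2.40) and lower at 1 d (-0.99), with an interaction of -2.70 at that time.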
